A study of Mus musculus with 18 samples.

Results

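Ly6a, Ly6c1, Ly6c2, Ly6e and Ly6i, 5 of the 22852 gene symbols counted, were followed in every sample of mouse bone marrow-derived macrophages (BMDMs). They were chosen by name, with their counts in these same samples known from earlier results, and no level or comparison was stated as a limit for the choice. The p values below therefore set each difference against the spread between replicates and are not independent evidence for the list.

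Ly6 proteins are small cell-surface proteins with a three-finger fold, held in the outer leaf of the membrane by a glycosylphosphatidylinositol (GPI) anchor. Ly6a encodes Sca-1, a marker of mouse haematopoietic stem cells that interferons induce in many cell types. Ly6c1 and Ly6c2 encode the Ly6C antigen that marks inflammatory monocytes, Ly6e is an interferon-stimulated gene known for its effects on virus entry, and Ly6i is a less studied neighbour of the same cluster.

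BMDMs came from C57BL/6 mice, female per the study's methods, whose marrow was grown into macrophages over 7 days with L929-conditioned medium. RNA-Seq was done on 18 samples, 3 biological replicates (R1 to R3 in the labels) in each of 6 groups. The labels name no transgene or deletion, and the age of the mice and whether a replicate was 1 animal or a pool are not given in the sources used here. The labels place the drug after LPS, whereas the methods place it 1 h before the first LPS dose.

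Unstimulated BMDMs (labelled Unstim) received neither agent. LPS-stimulated BMDMs (LPS10) received a single dose of LPS, the bacterial lipopolysaccharide that activates TLR4, at 10 ng/ml for 3 h. LPS-primed BMDMs (LPS100) received LPS at 100 ng/ml for 24 h. The single dose and the priming differ in both dose and time, whose parts cannot be told apart here. LPS-tolerant BMDMs (Tol) received the same priming and then LPS at 10 ng/ml for 3 h. LPS-primed and LPS-tolerant BMDMs were also prepared in the presence of 25 µM carboplatin (LPS100-Carbo25 and Tol-Carbo25), a platinum drug that crosslinks DNA. The last 4 groups share the priming dose and are called the primed groups below.

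Between 6869667 and 14708099 read pairs per sample fell on genes, and 11305 genes passed the expression filter. Macrophage markers were high in every sample, with a summed normalized read count of 113605 to 283337 over the 7 marker genes, so the labelled cell type was present. Neutrophil markers summed to between 7.27 and 13.1 in unstimulated BMDMs and to between 84.3 and 542 in the primed groups, nearly all of it S100a8, while Ly6g, Mpo, Retnlg and Cxcr2 were at 0 in all 18 samples. B cell markers summed to between 267 and 1560 in unstimulated BMDMs, to between 71.6 and 271 after the single dose, and to 12.7 or less in the primed groups, with Ighm making up most of the sum in the unprimed groups and Pax5 at 0 throughout. In bulk samples, fewer cells of a type and less RNA per cell cannot be told apart.

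The 5 genes lie together within 161.6 kb of mouse chromosome 15 (GRCm39, GENCODE vM39), and they are the only protein-coding genes annotated in that span. Ly6e is at 15:74826860-74847454 on the plus strand. The others are on the minus strand, with Ly6i at 15:74851383-74855279, Ly6a at 15:74863840-74869880, Ly6c1 at 15:74915847-74920686 and Ly6c2 at 15:74980003-74988467. Their coding sequences fall into near and distant relatives. Ly6c1 and Ly6c2 were identical at 97.7% of aligned coding bases and Ly6a and Ly6i at 86.3%, whereas Ly6e shared between 48.3% and 50.2% with each of the others.

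Because Ly6c1 and Ly6c2 are so alike, the first 300 of their 393 coding bases are shown (GENCODE vM39 transcripts on GRCm39), with capitals at the bases where the 2 genes differ. Of the 9 differing coding bases, 7 lie in this stretch, and the longest run without a difference is 188 bases.
Ly6c1 coding: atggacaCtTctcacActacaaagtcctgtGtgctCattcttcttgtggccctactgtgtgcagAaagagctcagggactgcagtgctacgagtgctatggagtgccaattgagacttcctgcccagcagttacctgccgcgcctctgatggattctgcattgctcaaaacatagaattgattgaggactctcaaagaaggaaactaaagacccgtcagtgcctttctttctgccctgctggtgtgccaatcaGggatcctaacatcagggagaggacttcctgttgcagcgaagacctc
Ly6c2 coding: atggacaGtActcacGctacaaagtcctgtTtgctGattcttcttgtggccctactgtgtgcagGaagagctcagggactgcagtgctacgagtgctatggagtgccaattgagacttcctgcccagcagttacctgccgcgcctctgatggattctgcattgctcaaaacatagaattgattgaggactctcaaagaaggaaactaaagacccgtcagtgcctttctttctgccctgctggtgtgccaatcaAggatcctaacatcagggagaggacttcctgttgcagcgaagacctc
Of all 150-base windows of the reference transcript, the read length of the study, 4.15% in Ly6c1 and 5.67% in Ly6c2 occurred in both genes. A read from any other window differs from the paralog in at least 1 base, so most of the transcript can be told apart, but how the counting treated near matches is not given in the sources used here. No 150-base window of Ly6i occurred in another gene. For Ly6a 3.54% of windows occurred in Gm28068 and for Ly6e 14.4% in Gm62552, in both cases a gene on the opposite strand that overlaps it. The library kit was stranded, but whether the counting used the strand is not given in the sources used here.

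The region before the start of the same pair is shown because Ly6c2 reached 283 read pairs in a sample and Ly6c1 at most 4. These are the 250 bases upstream of the first listed start in RefSeq (GRCm38.p6, minus strand), at chr15:75048838-75049087 for Ly6c1 and chr15:75111972-75112221 for Ly6c2. Capitals mark runs of at least 12 bases that are identical in the alignment of the 2 sequences.
Ly6c1 upstream: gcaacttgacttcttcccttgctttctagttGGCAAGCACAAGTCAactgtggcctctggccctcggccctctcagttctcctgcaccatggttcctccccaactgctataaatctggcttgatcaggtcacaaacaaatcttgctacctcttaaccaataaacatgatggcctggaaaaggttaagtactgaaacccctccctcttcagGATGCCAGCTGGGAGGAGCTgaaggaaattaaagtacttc
Ly6c2 upstream: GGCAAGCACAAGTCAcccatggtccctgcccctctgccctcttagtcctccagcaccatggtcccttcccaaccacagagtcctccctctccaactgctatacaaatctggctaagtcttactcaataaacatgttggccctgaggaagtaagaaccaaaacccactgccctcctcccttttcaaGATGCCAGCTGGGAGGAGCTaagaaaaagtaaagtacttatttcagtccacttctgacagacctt
The 2 windows are offset, as the run that opens the Ly6c2 window lies further inside that of Ly6c1. Bases past the end of the other window count as columns without a match. These regions matched at 57.7% of 284 alignment columns, a share that cannot be set against the coding identity for this reason. There were 2 runs of 12 bases or more, the longer of them 20 bases. On either strand, neither held the interferon response motif (GAAA and GAAA with 2 bases between), the gamma-activated motif (TTC and GAA with 3 bases between), or the NF-kappaB motif. In all 32851 RefSeq upstream regions of the same length, 2.98%, 7.02% and 7.25% held them, so the lack of a match in these windows is common and says nothing about the factors.

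The levels of the genes differed widely. Per kb of reference transcript, the mean normalized read count in LPS-primed BMDMs was 3451 for Ly6e, 384 for Ly6a, 154 for Ly6i, 120 for Ly6c2 and 0.998 for Ly6c1. Ly6e and Ly6a were counted in all 18 samples, while Ly6i and Ly6c2 were near 0 without priming and present in every primed sample. Ly6c1 did not pass the filter, so 4 of the 5 genes were tested.

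**Figure D1:**
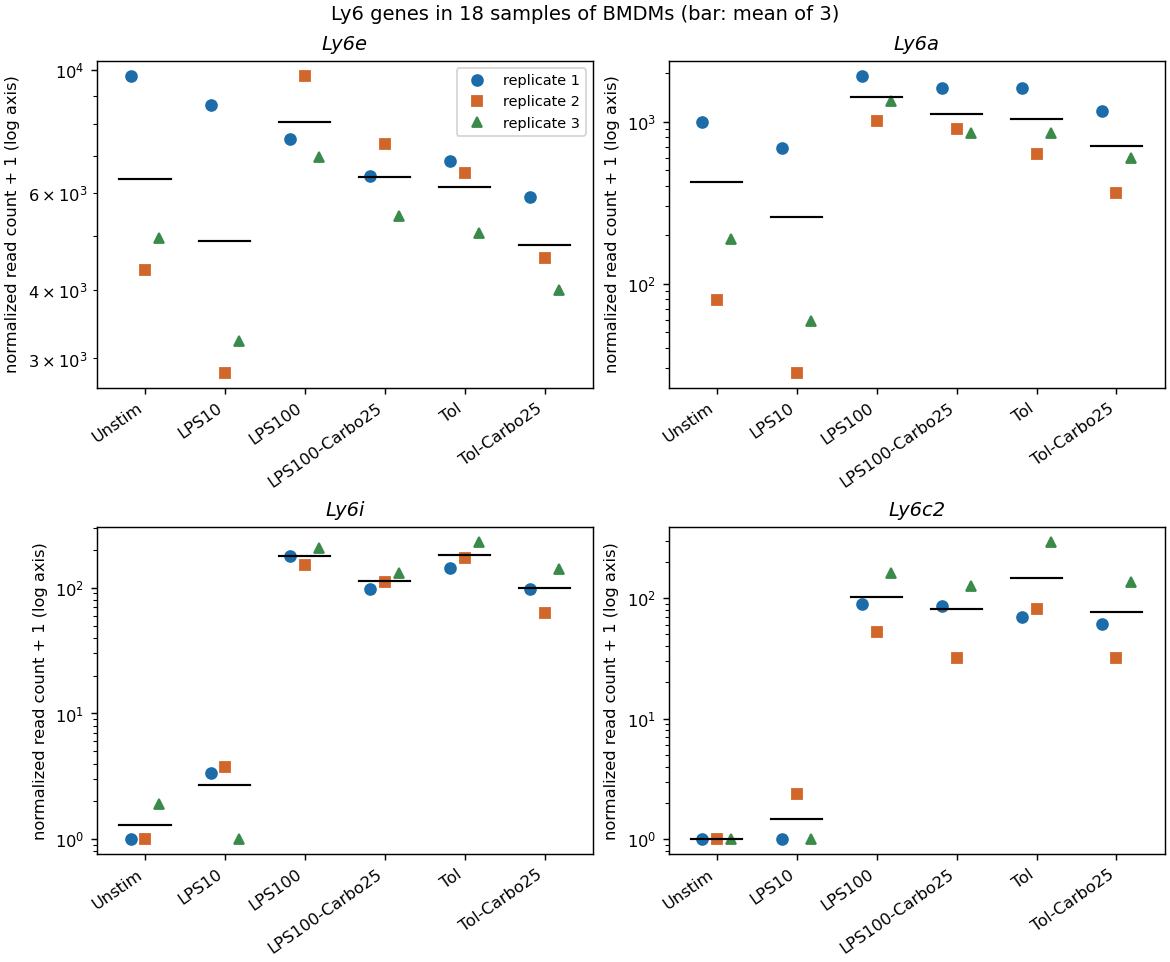
Normalized read counts plus 1 (log axis, a separate range in each panel) of Ly6e, Ly6a, Ly6i and Ly6c2 in the 18 samples, by group, with a symbol for each replicate number and a bar at the mean of 3. Ly6i and Ly6c2 were at or near 0 in the Unstim and LPS10 samples and above 30 in all 12 primed samples, while Ly6e and Ly6a were present in all samples, with replicate 1 far above the others in the Unstim and LPS10 groups.

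Ly6c2, which encodes the Ly6C antigen of inflammatory monocytes, had no read pair in unstimulated BMDMs, with raw counts of 0, 0 and 0 in R1, R2 and R3. After the single low dose the counts were 0, 2 and 0. In LPS-primed BMDMs they were 83, 45 and 173, and in LPS-tolerant BMDMs 54, 93 and 283. Thus no unprimed sample overlapped a primed one, and R3 was highest in each primed group. For single pairs of groups, all samples were also higher in LPS-primed than in unstimulated BMDMs for 18.1% of tested genes. The share was 21.1% for LPS-tolerant BMDMs over the single dose. For all primed against all unprimed samples no such share was computed. The mean normalized count was 100 ± 56.5 (SD, n = 3) in LPS-primed and 147 ± 125 in LPS-tolerant BMDMs. Ly6c2 was at least 117-fold higher in LPS-primed than in unstimulated BMDMs, from 301 read pairs against a floor of 3, each summed over its group and divided by the summed library size (edgeR adjusted p = 0.000146). Without Unstim R2 this bound was 74.5-fold. LPS-tolerant BMDMs were 243-fold above the single dose, with a 95% counting interval of 66.8 to 2012 that covers counting error only (adjusted p = 8.9e-05). Without Tol R3 the ratio was 124, and without LPS10 R2, the only sample of its group with a count, it was at least 91.0.

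Ly6i had the same order of group means but varied less between replicates in LPS-primed and LPS-tolerant BMDMs. Its raw counts were 0, 0 and 1 in unstimulated BMDMs and 2, 4 and 0 after the single dose. They were 169, 132 and 218 in LPS-primed and 112, 197 and 223 in LPS-tolerant BMDMs. The primed and unprimed samples again did not overlap, with the same shares of tested genes for single pairs of groups as given for Ly6c2. The mean normalized count was 178 ± 27.0 in LPS-primed and 181 ± 44.8 in LPS-tolerant BMDMs (SD, n = 3). Ly6i was 605-fold higher in LPS-primed than in unstimulated BMDMs, again from counts summed over each group (edgeR log2FC 8.72, adjusted p = 2.2e-08). The counting interval was 108 to 23933 because the lower group held 1 count. Without Unstim R3, which held that count, the ratio was at least 136, and without Unstim R2 it was 386. LPS-tolerant BMDMs were 100-fold above the single dose, interval 45.7 to 274 (adjusted p = 4.8e-08). This ratio was 169 without LPS10 R2, 69.4 without LPS10 R3 and 87.2 without Tol R3. Between the single dose and no stimulation the ratio was 6.12, interval 0.743 to 282 (adjusted p = 0.109), and this call changed without LPS10 R3, the sample at 0 (log2FC 2.70, adjusted p = 0.0384).

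Ly6c2 and Ly6i were thus the 2 of the 5 genes called as higher with priming. Of all tested genes, 25.2% were called there in either direction and 12.1% as higher. The same 2 were called between LPS-tolerant and LPS-stimulated BMDMs, where 34.5% were called in either direction and 16.2% as higher. With so few counts in every unprimed sample, both genes passed the expression filter through their primed samples alone. Once they were tested, calls against the unprimed groups were therefore likely and add little to the counts themselves. Neither gene was called between LPS-tolerant and LPS-primed BMDMs. The log2FC there was 0.54 (95% interval -0.82 to 1.90, adjusted p = 0.698) for Ly6c2 and 0.02 (-0.66 to 0.70, adjusted p = 0.985) for Ly6i. For Ly6c2 the sign of this difference rested on Tol R3, without which it was -0.43. None of the 5 genes was called between these 2 groups, where 6.31% of tested genes were. At an unadjusted p under 0.05, or with DESeq2, the count of these genes was also 0.

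Ly6c1, the paralog, stayed near the limit of counting in every group, with 18 read pairs in all 18 samples and at most 4 in any sample. The highest counts were 4 in LPS100-Carbo25 R3 and 4 in Tol R3, the samples with the most Ly6c2 in their groups, and 9 samples were at 0. Ly6c2 had 1173 read pairs in the same samples. Ly6c1 was therefore not detectable as different between groups at this depth, and with the filter removed its adjusted p was 0.290 or more in each comparison between groups.

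**Figure D2:**
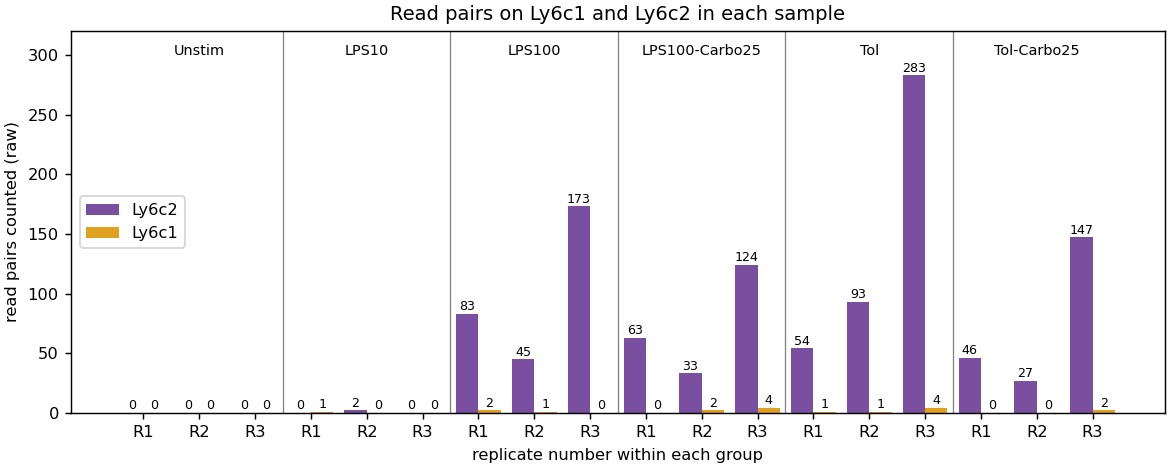
Raw read pairs counted on Ly6c2 and Ly6c1 in each of the 18 samples, by group and replicate number, with the count above each bar. Ly6c2 ranged from 27 to 283 in the primed groups and from 0 to 2 elsewhere, while Ly6c1 never exceeded 4.

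Ly6a, which encodes Sca-1, was spread widely between replicates in the groups without priming. In unstimulated BMDMs its normalized counts were 999, 78.7 and 187 in R1, R2 and R3. After the single dose they were 687, 27.0 and 58.2. In LPS-primed BMDMs they were 1917, 1013 and 1336. R1 was the highest sample in these groups, but the LPS-primed samples were all above the unstimulated ones, as they were for 18.1% of tested genes. In LPS-tolerant BMDMs the values were 1614, 634 and 852, so Tol R2 was below LPS10 R1 and these groups overlapped.

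Ly6a means were 422 ± 503 without stimulation, 257 ± 373 after the single dose, 1422 ± 458 after priming and 1034 ± 515 in tolerance (SD, n = 3). Between LPS-primed and unstimulated BMDMs the log2FC was 1.76 (SE 0.92, edgeR adjusted p = 0.185), so the difference did not exceed the spread between replicates in this fit. Within same-numbered pairs, priming raised Ly6a 1.92-fold in R1, 12.9-fold in R2 and 7.14-fold in R3, and 31.6% of tested genes were higher in all 3 of these pairs. With the replicate number as a block the log2FC was 2.37 (SE 0.52, adjusted p = 0.00138), in a fit that called 38.6% of all tested genes. Without Unstim R1 it was 3.42 (adjusted p = 0.0236).

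The same held between LPS-tolerant and LPS-stimulated BMDMs. The log2FC of Ly6a was 2.03 (SE 0.94, adjusted p = 0.107), and 2.68 (SE 0.54, adjusted p = 0.000483) with the replicate block, which called 47.6% of tested genes. The ratio was 2.35 in R1, 23.5 in R2 and 14.7 in R3, and 33.1% of tested genes were higher in all 3 of these pairs. Without LPS10 R1 the log2FC was 4.63 (adjusted p = 0.00146).

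The single low dose did not raise Ly6a. All 3 same-numbered pairs were lower after it, at 0.688, 0.343 and 0.311 times the unstimulated sample, as 40.1% of tested genes were, but the log2FC of -0.73 (SE 0.92) was not called (adjusted p = 0.530). This comparison called 51.2% of tested genes and none of the 5 Ly6 genes, also at an unadjusted p under 0.05 and with DESeq2. Here 1 library decided the value. Without LPS10 R1 the log2FC was -3.33 (adjusted p = 0.00632), and without Unstim R1 it was 0.93 (adjusted p = 0.437).

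Ly6e, the gene with the highest level per kb of transcript, had group means between 4815 and 8071 normalized counts. Its normalized counts were 9766, 4337 and 4962 in unstimulated BMDMs. They were 8632, 2820 and 3233 after the single dose. R1 stood apart in both groups. In LPS-primed BMDMs the values were 7501, 9755 and 6959, and in LPS-tolerant BMDMs 6844, 6508 and 5068, so the latter were all below the former.

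The Ly6e mean was 6355 ± 2971 without stimulation, 4895 ± 3243 after the single dose, 8071 ± 1483 after priming and 6140 ± 943 in tolerance (SD, n = 3). No comparison among these groups passed the test. The log2FC was 0.34 (SE 0.36, edgeR adjusted p = 0.538) for LPS-primed against unstimulated, -0.38 (adjusted p = 0.394) for the single dose against unstimulated, and -0.39 (adjusted p = 0.587) for LPS-tolerant against LPS-primed BMDMs. In the last pair of groups the LPS-tolerant samples were all lower, as they were for 13.6% of tested genes. Without LPS10 R1, Ly6e was lower after the single dose than without stimulation (log2FC -1.07, adjusted p = 0.00655) and higher in LPS-tolerant BMDMs than after the single dose (1.02, adjusted p = 0.0135). Without replicate 1 in every group, the log2FC for LPS-primed against unstimulated BMDMs was 0.84 (adjusted p = 0.0122).

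Which replicate number stood highest differed by gene. Ly6a was highest in R1 in all 6 groups, as were 7.18% of tested genes, and 10.6% had any 1 number highest throughout. R1 exceeded the mean of R2 and R3 by 7.51-fold in unstimulated and 16.1-fold in LPS-stimulated BMDMs, but only by 1.63-fold to 2.45-fold in the primed groups. Ly6c2 was highest in R3 in all 4 primed groups, as were 4.88% of tested genes, by 2.15-fold to 3.92-fold over the mean of the others. Ly6i was also highest in R3 there, by 1.24-fold to 1.78-fold.

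Other measures moved with these numbers. R1 also differed from R2 and R3 across the whole library. On the third axis of a principal component analysis over all tested genes, R1 lay between 22.7 and 43.8 in every group. All R2 and R3 samples had negative values on it. Ambiguous pairs made up 0.103% to 0.175% of R1 samples and 0.231% to 0.286% of R2 and R3 samples. The mean log2 CPM (counts scaled to library size) of 68 tested interferon-stimulated genes was 6.47, 5.19 and 5.80 in R1, R2 and R3 of unstimulated BMDMs, in the same order as Ly6a and Ly6e. After the single dose it was 6.98, 6.96 and 6.59, and thus nearly equal in R1 and R2, where Ly6a and Ly6e differed most. In each primed group the interferon-stimulated genes were highest in R2, where Ly6a was never highest. Ly6e was highest in R2 of LPS-primed BMDMs without (9755) and with carboplatin (7337), and in R1 of LPS-tolerant BMDMs without and with it. Stem and progenitor markers (Kit, Cd34, Gata2 and Mycn) summed to 44.0, 16.4 and 19.1 normalized counts in unstimulated R1, R2 and R3 and to 32.2, 22.1 and 12.8 after the single dose, also highest in R1, with Mycn at 0 throughout. B cell markers went the other way in unstimulated BMDMs, at 267, 949 and 1560. Neutrophil markers were highest in R1 of each primed group, not in R3 as Ly6c2 was. The sum of 7 inflammatory monocyte markers was highest in R3 of each primed group, as Ly6c2 and Ly6i were. In R1, R2 and R3 it was 7724, 4909 and 10537 in LPS-primed and 6106, 4451 and 8540 in LPS-tolerant BMDMs. With carboplatin the sums were 7524, 5451 and 9541 in LPS-primed and 4661, 3974 and 7140 in LPS-tolerant BMDMs. Vcan and Hp made up most of these sums, and single markers differed. F13a1 was highest in R2 of each primed group, at 180, 364 and 171 in LPS-tolerant R1, R2 and R3. Ccr2 was highest in R2 of each primed group except LPS-tolerant BMDMs without carboplatin. In that group Vcan was highest in R1 (4333, 2523 and 4126). The part of these measures in the Ly6 values was not tested.

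**Figure D3:**
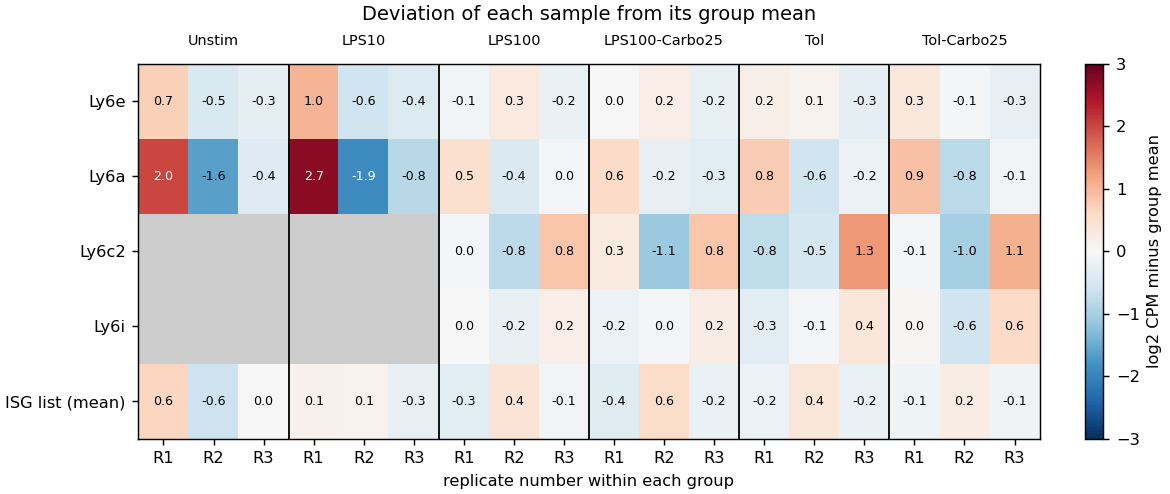
Deviation of each sample from its group mean (log2 CPM, colour and printed value) for Ly6e, Ly6a, Ly6c2, Ly6i and the mean of 68 interferon-stimulated genes, in 6 groups of 3 replicates. Grey cells mark groups where Ly6c2 or Ly6i was near 0. Ly6a was above its group mean in R1 of every group and Ly6c2 and Ly6i were above theirs in R3 of every primed group, while the interferon-stimulated genes were above theirs in R2 of every primed group.

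Carboplatin was compared within LPS-primed and within LPS-tolerant BMDMs. None of the 5 genes was called, where 0.372% of tested genes were called in LPS-primed and 0.425% in LPS-tolerant BMDMs. DESeq2 also called 0 of them in both. At an unadjusted p under 0.05 only Ly6i in LPS-tolerant BMDMs passed. Still, Ly6a, Ly6c2, Ly6e and Ly6i were lower with carboplatin in 3 of 3 same-numbered pairs of both comparisons. Of all tested genes, 20.7% were lower in all pairs in LPS-primed, 22% in LPS-tolerant and 10% in both. The 4 genes share their samples, so these are not 4 separate observations.

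Ly6i fell furthest outside its replicate spread. In LPS-primed BMDMs its normalized counts of 179, 150 and 204 stood against 97.2, 109 and 129 with carboplatin. In LPS-tolerant BMDMs 142, 170 and 230 stood against 95.7, 61.5 and 140. Neither pair of groups overlapped, as also held, in the lower direction, for 7.68% and 6.12% of tested genes and for 2.67% in both. The log2FC was -0.67 (SE 0.33, edgeR adjusted p = 0.738) in LPS-primed and -0.86 (SE 0.33, adjusted p = 0.525) in LPS-tolerant BMDMs.

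Ly6c2 in LPS-primed BMDMs was 87.8, 51.3 and 162 without and 85.1, 31.0 and 125 with carboplatin. In LPS-tolerant BMDMs it was 68.4, 80.3 and 291 without and 60.3, 30.7 and 135 with carboplatin. The groups overlapped widely, R1 changed least and R3 was highest throughout. The log2FC was -0.33 (95% interval -1.71 to 1.05) and -0.95 (-2.33 to 0.43), and without LPS100 R3 or Tol R3 it turned to 0.20 and 0.023. Without LPS100-Carbo25 R2 the first of these was 0.062.

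Ly6a was 1607, 902 and 847 with carboplatin in LPS-primed and 1168, 362 and 594 in LPS-tolerant BMDMs. These overlapped the groups without the drug, with a log2FC of -0.35 (95% interval -2.23 to 1.54) and -0.55 (-2.44 to 1.35). Ly6e was 6429, 7337 and 5449 with carboplatin in LPS-primed and 5893, 4558 and 3993 in LPS-tolerant BMDMs. It moved by a similar amount in both, at -0.33 (-1.08 to 0.42) and -0.35 (-1.10 to 0.40).

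**Figure D4:**
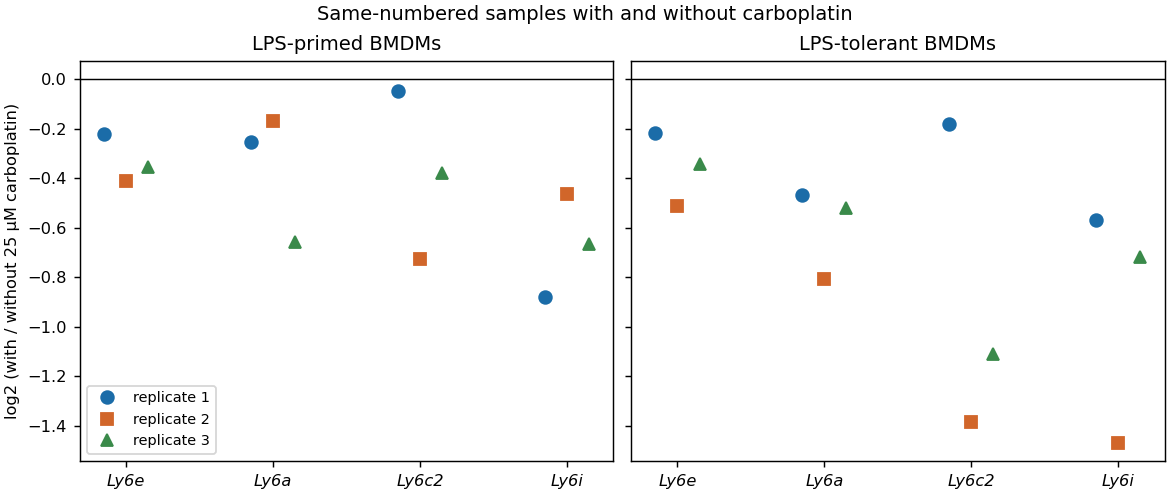
Log2 ratio of normalized read counts with over without 25 µM carboplatin in same-numbered samples, for Ly6e, Ly6a, Ly6c2 and Ly6i, in LPS-primed (left) and LPS-tolerant BMDMs (right), with a symbol for each replicate number. All points lie below 0, and the lowest is Ly6i in replicate 2 of LPS-tolerant BMDMs at -1.47, but none of these differences passed the adjusted test.

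The response to the second dose, LPS-tolerant against LPS-primed, was also set against the response to the single dose in cells never primed. The difference of the 2 log2FC values was 0.27 (SE 1.28, edgeR adjusted p = 0.908) for Ly6a, -0.02 (SE 0.50, adjusted p = 0.988) for Ly6e and -2.17 (adjusted p = 0.199) for Ly6i, where 6 counts after the single dose and 1 without stimulation carry the comparison. None of these was called, whereas 23.8% of tested genes were. Without replicate 3 in every group Ly6i was called (-4.51, adjusted p = 0.0415). For Ly6c2 no such value is given, as both unprimed groups were at or under the floor.

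No difference in the effect of carboplatin between the 2 states was called, and the intervals were wide. The difference in log2FC, LPS-tolerant minus LPS-primed, was -0.62 (95% interval -2.56 to 1.33) for Ly6c2, -0.20 (-2.87 to 2.47) for Ly6a, -0.19 (-1.17 to 0.78) for Ly6i and -0.02 (-1.08 to 1.04) for Ly6e. Of the 11305 tested genes, 0 (0%) were called for this difference by edgeR, and 131 passed at an unadjusted p under 0.05.

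Ordered by mean, Ly6a and Ly6e were highest in LPS-primed BMDMs and Ly6c2 and Ly6i in LPS-tolerant BMDMs. Neighbours in the order of Ly6a and of Ly6e did not differ beyond their spread. For Ly6c2 and Ly6i the only step that passed was from LPS-tolerant BMDMs with carboplatin to the single dose (adjusted p = 0.000311 and 2.8e-07).

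The genes closest to each Ly6 gene over the 18 samples were found by Pearson correlation of log2 CPM. This measure takes in differences between groups and between replicates, and their parts were not separated. Ly6c2 and Ly6i were close to each other (r = 0.98), and both were close to C1s1, a complement protease (0.98 for each). Next to Ly6c2 were Tmc3, Mcemp1 and the inflammasome receptor gene Naip1 (0.96 to 0.97), and next to Ly6i were the cytokine receptor gene Il23r, Klra2, Pla2g7 and Bst1 (0.98 for each). Ly6e was closest to Bst2, which encodes the GPI-anchored antiviral protein tetherin (0.92), followed by Phf11a, H2-T23, Lgals3bp and Chchd1 (0.88 to 0.90). Ly6a was closest to Selenow, Atp5o, Nucb2 and Rexo2 (0.93 to 0.95). Ly6e was near Ly6a (0.79) but far from Ly6i (0.29) and Ly6c2 (0.20).

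Of 44 other genes of the wider Ly6/uPAR family, 28 were at 0 in all samples, among them the neutrophil marker Ly6g, and 14 more did not pass the filter. The remaining 2 were tested. Plaur, the urokinase receptor, rose after the single dose (log2FC 5.06, SE 0.50, edgeR adjusted p = 3.8e-07), where none of the 5 listed genes was called. It also rose with priming (1.91, adjusted p = 0.00386) and was higher in LPS-tolerant than in LPS-primed BMDMs (2.24, adjusted p = 0.00542). Cd59a, an inhibitor of the complement membrane attack complex, fell after the single dose (-0.54, adjusted p = 0.0369).

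The interferon-stimulated genes, to which Ly6e is usually counted, were described as a list of 68 tested genes. After the single dose, which called 51.2% of all tested genes, 24 of them rose and 0 fell. Their median log2FC was 0.56 against -0.09 over all tested genes, whereas Ly6e stood at -0.38 (SE 0.36, not called). In LPS-tolerant against LPS-stimulated BMDMs, where 34.5% of all tested genes were called, 1 rose and 43 fell (median -1.24). Ly6e stood at 0.33 there (SE 0.36, not called). The 1 that rose was Irf7, an interferon regulatory factor, at 1.63 (adjusted p = 0.0239). With priming, which called 25.2% of all tested genes, 7 rose and 2 fell, among the risers Ifitm3, an inhibitor of virus entry (1.09, adjusted p = 0.0292), and those that fell were Ifi207 (adjusted p = 0.0403) and, named after its values were seen, Ifit3b (-2.10, adjusted p = 0.0144). With the replicate block, which called 38.6% of tested genes there, 11 rose and 6 fell. With carboplatin 0 of 68 were called in either state by edgeR. Ly6e and the list median had the same sign with priming (0.34 and 0.26) and in LPS-tolerant against LPS-primed BMDMs (-0.39 and -0.77). The same held with carboplatin in LPS-primed (-0.33 and -0.16) and in LPS-tolerant BMDMs (-0.35 and -0.15). None of these Ly6e values was called.

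Markers of inflammatory monocytes, the cells known for Ly6C, moved in both directions. With priming, where 25.2% of all tested genes were called, 3 of 5 tested markers rose, Vcan (log2FC 6.72), Hp (7.44) and F13a1 (3.97), while Ccr2, the chemokine receptor of these monocytes, fell by 2.03 (edgeR adjusted p = 0.00868). Vcan and Hp also rose after the single dose (4.65 and 3.23), where Ly6c2 had 2 counts in all. In that comparison, which called 51.2% of all tested genes, Ccr2 fell (-2.07, adjusted p = 0.00351) and F13a1 was not called (1.12, adjusted p = 0.248). With carboplatin edgeR called 0 of the 5 tested markers in either state. With the replicate block, which called 1.77% of tested genes in each state, 1 fell in each, F13a1. Its log2FC was -1.86 (adjusted p = 0.0171) in LPS-primed and -2.15 (adjusted p = 0.00520) in LPS-tolerant BMDMs.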

How the data were processed

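RNA-Seq was done on 18 samples of C57BL/6 BMDMs. Per the study's methods, the authors made TruSeq stranded mRNA libraries, mapped the read pairs by HISAT2 (GRCm39) and took counts for each gene from HTSeq-count. Raw counts were deposited and no normalization had been applied. Program versions, annotation and strand setting are not given in the sources used here. Pairs on no gene made up 26.5% to 33.1% of a sample, ambiguous pairs 0.103% to 0.286% and non-unique pairs 4.21% to 5.18%, and they stayed out of library sizes.

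The test was the quasi-likelihood F test of edgeR 4.0.16 (R 4.3.3), with the 6 group means fitted jointly over the 18 samples, TMM scaling, the default filter (minimum count 10, minimum total 15) and Benjamini-Hochberg adjustment over 11305 genes. A gene was called at an adjusted p under 0.05, with no fold limit. The SE is the absolute log2FC over the square root of F. Normalized counts were scaled to the mean TMM-scaled library size. A group with 0 counts was set to a floor of 3 counts, and groups with few counts got an exact 95% counting interval. The adjusted p beside such a ratio or bound tests the edgeR log2FC, not the ratio of summed counts. The script was tested on simulated data. Groups came from the labels. The labels' replicate numbers paired the samples: deviations from group means of same-numbered samples correlated above 0.1 in 44 of 45 pairs (mean 0.35), the exception (0.0631) lying between the single-dose and LPS-primed groups, which were not compared with each other. The study's methods used DESeq2, which is an alternative here.

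Sequences were taken from GENCODE vM39 and RefSeq and aligned with Biopython 1.88. Promoters of 2 of the 5 genes were matched. The genes named beside the 5 were every other tested family gene, the 5 most correlated genes per Ly6 gene and, of each other list, the 4 with the highest mean, of which a selection is given. Not every gene so picked is reported here. Vcan, Hp, F13a1 and Ccr2 come from this rule. The members and the gene lists were chosen with earlier results of these data known.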

Additional observations from a re-analysis of the deposited data

How the results depend on the processing

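For Ly6c2 and Ly6i, the calls between LPS-primed and unstimulated BMDMs and between LPS-tolerant and LPS-stimulated BMDMs held under every alternative run: RLE size factors, library size alone, no filter, DESeq2, limma-voom, only the groups compared, the replicate block, leaving out each sample or each replicate number, and, for Ly6c2, adding the Ly6c1 counts. No carboplatin comparison and no comparison of LPS-tolerant with LPS-primed BMDMs gained a call for any Ly6 gene.

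The calls for Ly6a depended on the tool and the pairing. In LPS-primed against unstimulated BMDMs its log2FC was 2.52 with limma-voom and 2.37 with the replicate block, both called, and in LPS-tolerant against LPS-stimulated BMDMs 3.46 and 2.68, both called. The replicate block changed no other call of the 5 genes. The cause was not tested. Some small differences that were never called changed sign. With library size alone these were Ly6i in LPS-tolerant against LPS-primed BMDMs (-0.075), Ly6e in the difference between the 2 carboplatin effects (0.022) and Ly6e in the second minus the first LPS response (0.21, and 0.088 with limma-voom).

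Leaving out 1 sample, or 1 replicate number in all groups (a setting chosen after seeing the data), gave these ranges of log2FC. Ly6a ranged from 1.28 to 3.42 in LPS-primed against unstimulated BMDMs, from -3.33 to 0.93 after the single dose, and from 1.48 to 4.63 in LPS-tolerant against LPS-stimulated BMDMs. Ly6e ranged in the same comparisons from -0.0048 to 0.84, from -1.07 to 0.074 and from 0.019 to 1.02. Ly6i ranged from 1.05 to 4.44 after the single dose and from -0.18 to 0.18 in LPS-tolerant against LPS-primed BMDMs, where Ly6c2 ranged from -0.43 to 1.07. Against the groups near 0, the fitted log2FC, which depends on the prior count and is no bound, ranged from 9.11 to 9.98 for Ly6c2 and from 8.25 to 10.47 for Ly6i with priming, and from 6.25 to 10.43 and from 5.84 to 7.26 in LPS-tolerant against LPS-stimulated BMDMs. With carboplatin Ly6c2 ranged from -0.80 to 0.20 in LPS-primed and from -1.69 to 0.023 in LPS-tolerant BMDMs. The difference between the carboplatin effects ranged from -0.77 to 0.27 for Ly6a, from -1.36 to 0.35 for Ly6c2, from -0.20 to 0.10 for Ly6e and from -0.53 to 0.091 for Ly6i. The second minus the first LPS response ranged from -1.39 to 2.87 for Ly6a, from -0.47 to 0.68 for Ly6e and from -4.51 to -1.08 for Ly6i. The number of the 5 genes called ranged from 2 to 4 with priming, from 0 to 2 after the single dose and from 2 to 4 in LPS-tolerant against LPS-stimulated BMDMs. At 0 to 4 counts per sample, depth limits every statement on Ly6c1 and on Ly6c2 and Ly6i without priming.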

Other observations

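GPI anchors are built by the PIG enzymes and trimmed by the PGAP proteins. Of 31 tested genes of this pathway, 4 rose and 0 fell with LPS priming, 4 rose and 9 fell after the single dose, and 6 rose and 0 fell in LPS-tolerant against LPS-stimulated BMDMs (edgeR adjusted p under 0.05). Of all tested genes, 25.2%, 51.2% and 34.5% were called in these comparisons. With the replicate block the last count was 11 and 1. Tmed2, a cargo receptor that carries GPI-anchored proteins out of the endoplasmic reticulum, rose with priming by a log2FC of 0.81 (adjusted p = 0.00151) and after the single dose by 0.61 (adjusted p = 0.00590). Pgap2, which remodels the lipid of the anchor and was named after its values were seen, rose in the same comparisons (1.02, adjusted p = 0.000411, and 0.45, adjusted p = 0.0438). With carboplatin edgeR called 0 of the 31 genes in either state, and with the replicate block 1 fell in LPS-primed BMDMs, Pgap6 (-0.86, adjusted p = 0.0347).

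Of 28 tested genes of interferon signalling, 10 rose and 1 fell with priming, while 12 rose and 5 fell after the single dose, where 25.2% and 51.2% of all tested genes were called. Jak2, a kinase of the interferon-gamma receptor, had a log2FC of 2.72 with priming and 5.04 after the single dose. Socs3, a feedback inhibitor of cytokine receptors, had 6.09 and 8.42. In LPS-tolerant BMDMs both fell relative to the single dose, with a log2FC of -2.74 and -3.05.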
